A study of Drosophila melanogaster and Drosophila ananassae and Drosophila pseudoobscura with 52 samples.

Results

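The comparison set male flies of 1 Drosophila melanogaster stock against male flies of 8 inbred lines of the same species, all measured for A-to-I RNA editing. The stock (UCSD stock 14021-0231.69) was the D. melanogaster member of a panel of Drosophila species, and its 2 male libraries were reduced by the authors to 1 value per site. The lines were DGRP_26, DGRP_325, DGRP_352, DGRP_441, DGRP_721, DGRP_774, DGRP_786 and DGRP_804 of the Drosophila Genetic Reference Panel, a collection of inbred strains that each stem from a single wild-caught female, with 2 male libraries and 2 values per line. Both sets were pools of whole bodies of males aged 5 days and reared on molasses medium. Levels of females of the same stock and of males of a single Drosophila simulans stock of the panel, also aged 5 days, are given beside them. The table listed 2380 editing sites, and the comparison used the 500 sites that had a level in the stock males and in all 16 libraries of the lines. The question was at how many sites, at which of them and by how much the stock lay outside the range spanned by the 8 line means. The stock is a single strain, each line is a single inbred genotype, and the labels name no sequencing run, so a difference of the stock from the lines and a difference between the measurements of both sets cannot be told apart.

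A-to-I editing is the deamination of adenosine to inosine in double-stranded RNA by ADAR enzymes, of which the fly has a single gene, Adar. Inosine pairs like guanosine, so an edited adenosine is read as G in cDNA and, in a codon, can change the amino acid. In flies many edited transcripts encode ion channels and proteins of synaptic transmission, and the enzyme recognises the folded RNA around a site, so that adenosines close together are often edited in the same duplex. A genomic G at the position is also read as edited. The editing level is the percent of reads at a site that carry the edited base, and differences between levels are given in percentage points.

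The authors measured levels by microfluidic multiplex PCR and sequencing, in which each amplicon is made by its own primer pair. Whether RNA-seq levels were added to the stock values is not stated. Of the 500 sites, 265 were listed as the target of 1 of the 605 primer pairs designed for D. melanogaster. Where the others lie relative to the amplicons was not determined. The pairs for 4 sites on which the results below turn are shown because the level of each rests on reads between them, in the stock and in the lines alike. They belong to the X site at position 2111839 (named H4 below, minus strand) and to the 3L sites at 2941312 (L1, plus strand), 9148318 (L2, minus strand) and 18748272 (L5, minus strand), with positions in build dm3.
H4 forward primer: ggcgcgcaagaagctaa
H4 reverse primer: cgcaccaatatctcgctgt
L1 forward primer: tgccgaaaaggatgaaaaggat
L1 reverse primer: cttttcgcggcgcatct
L2 forward primer: cgatgggctactaccttatac
L2 reverse primer: cagtagactggcaaagacca
L5 forward primer: gaggaaccaattccaacgat
L5 reverse primer: actcttaatggctcgattagc

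The 500 sites were 66.5% of the 752 sites with a level in stock males. A further 55 of these 752 had a level in some libraries of the lines, and 197 had one in no library of the lines. Levels at those 197 sites had a median of 5.7% in the stock, and 81 of them (41.1%) were at 10% or more, against a median of 9.8% and 249 sites (49.8%) among the 500 that were compared. In the other direction, 56 sites had a level in all 16 libraries of the lines and none in stock males. Their line levels had a median of 29.4% and ran from 0.394% to 81.5%, and 42 of them had a level in the females of the stock. The 500 sites lay on X (121), 2R (128), 3L (94), 3R (88), 2L (61) and the fourth chromosome (8). Each library of the lines had a level at 603 to 667 sites of the table. The tables give no number of reads behind a level, and no counting interval is given.

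Levels in the stock and in the lines followed each other over most of their range. Spearman's rho over the 500 sites was 0.925 to 0.943 between the stock and each line, highest with DGRP_804, and 0.944 to 0.975 over the 28 pairs of lines. These correlations run across sites, which can share amplicons and cannot be taken as independent, and no p is given. The median absolute difference was 1.8 to 2.45 points between the stock and each line, 1.05 to 1.95 points between 2 lines, and 0.8 to 1.7 points between the 2 libraries of a line. By rho the stock was thus less like every line than any pair of lines was like each other, and by the absolute difference it stood further from every line than the median pair of lines (1.325 points).

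The stock lay outside the range of the 8 line means at 213 of the 500 sites (42.6%). It was above the highest line mean at 136 sites (27.2%), below the lowest at 77 sites (15.4%) and inside the range at 287 sites (57.4%). Above the range it was outside by a median of 1.925 points, with quartiles of 0.55 and 4.3 points and a maximum of 40.55 points. Below the range it was outside by a median of 0.6 points, with quartiles of 0.2 and 1.75 points and a maximum of 37.95 points. Many of these distances were small beside the spread between libraries of a line. At 44 of the 136 sites above, the distance exceeded the largest difference between the 2 libraries of any line at that site, and at 3 of the 77 sites below it did so. A distance of at least 5 points was reached at 27 sites above and 6 below, and of at least 10 points at 14 above and 2 below. Against the range of all 16 libraries in place of the 8 line means, the stock was above at 86 sites and below at 38.

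**Figure D1:**
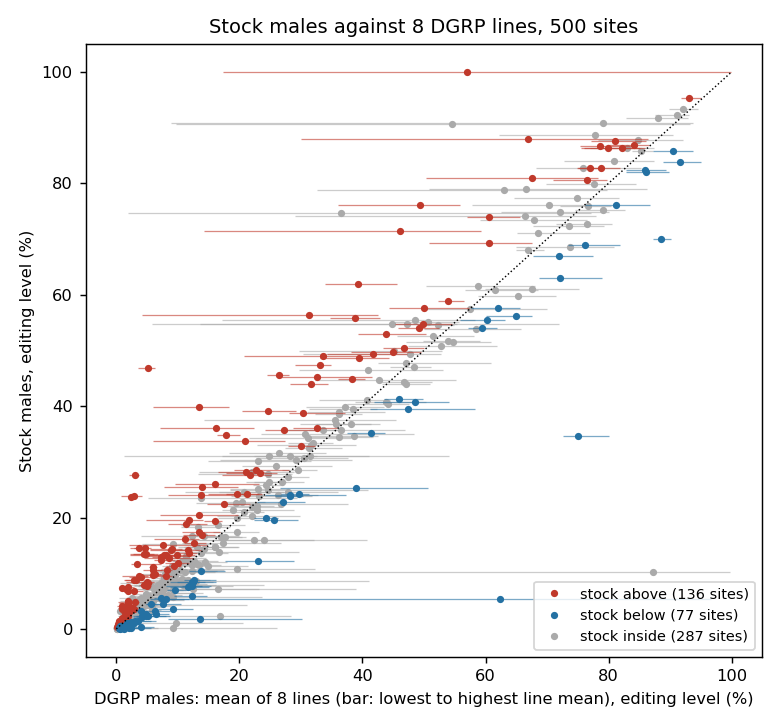
Editing level of the stock males (vertical axis, %) against the mean of the 8 DGRP lines (horizontal axis, %), 1 point for each of the 500 sites. Horizontal bars run from the lowest to the highest line mean, the dotted line marks equal levels, and points that lie far above it, such as the stock level of 46.8% beside a line mean of 5.14%, outnumber those far below it.

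The median difference of the stock from the mean of the lines was 0.384 points over the 500 sites, with quartiles of −0.884 and 3.08 points, and 1.49 points over the 241 sites with a line mean of at least 10%. The stock level was higher than the line mean at 297 sites and lower at 202. The difference was not the same at all levels. Its median was 0.003 points at line means under 1%, −0.14 points at 10 to 20% and 2.1 points at 20 to 50%. The split between sites above and below the range moved when a constant was taken off the stock. When every stock level was lowered by the median difference, 111 sites were above the range and 141 below, so that 44.0% of the sites outside were above, against 63.8% as deposited. The count outside was then 252. Such a constant is large beside levels near 0, and the part of those sites in the change was not tested.

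Each line was set against its other 8 genotypes, the stock included, in the same way as the stock was set against the lines. The stock was outside at 213 sites, and the lines at 70 (DGRP_26) to 155 (DGRP_774), with a median of 85.5. DGRP_774 was mostly below the others, at 112 sites against 43 above, and had the widest spread between its libraries, with differences of over 10 points at 48 sites and a median difference of 1.7 points. The part of that spread in its count was not tested. DGRP_786 had the highest count above among the lines, 72 sites, against 136 for the stock. With only the 410 sites at which the libraries of every line differed by at most 10 points, the stock was outside at 180 sites and the lines at 58 to 123. At a distance of at least 5 points the stock was outside at 33 sites and the lines at 3 to 18. Without DGRP_774 the stock was outside the range of the 7 lines left at 231 sites, and the lines were outside at 84 to 112. The stock enters the comparison as 1 value that stands for 2 libraries, and each line as a mean of 2 libraries.

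**Figure D2:**
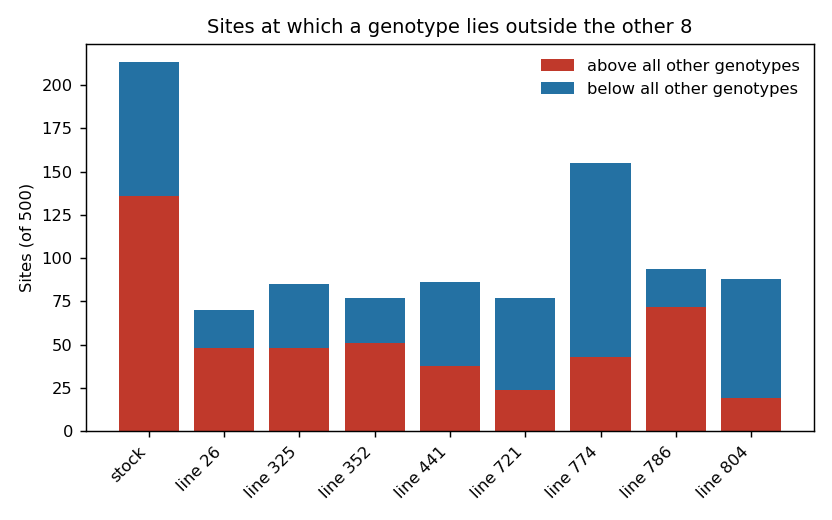
Number of the 500 sites at which each genotype lay above (red) or below (blue) the range of the other 8 genotypes, with the stock on the left. The stock was outside at 213 sites, and the lines at 70 to 155.

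The excess above was found at most levels of editing. At line means of 1 to 5% the stock was above at 37.4% of 107 sites and below at 16.8%, and at 20 to 50% it was above at 29.1% of 103 sites and below at 11.7%. The shares were nearly even under 1%, with 15.8% above and 18.4% below of 76 sites, and the order was reversed at 80% or more, with 22.2% above and 33.3% below of 18 sites. By chromosome arm, the stock was outside at 50% of the sites on 3L, 47.7% on 2R, 40.9% on 3R, 37.7% on 2L, 36.4% on X and 25% of the 8 sites on the fourth chromosome.

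Single sites were tested with limma on log2 of the edited over the unedited share, with the stock as 1 sample against the 8 line means. The test used the same stock and line values that set the range, so a call is no separate evidence that the stock lies outside it. The lone stock value was assumed to vary as the line means do. Without that model, an exact permutation test of 1 value against 8 cannot give a one-sided p under 0.111. Of the 427 sites with a mean level of at least 1%, 39 (9.13%) passed a Benjamini-Hochberg adjusted p of 0.05. The stock was higher at 32 of them (7.49%) and lower at 7 (1.64%), and 91 sites (21.3%) had an unadjusted p under 0.05. All 39 were outside the range of the line means, and 37 were beyond every library of the lines. The median difference was 9.41 points at the 32 sites called higher, −6.375 points at the 7 called lower and 0.8875 points over the 427. The split in direction moved with the centring here too: the fitted difference had a median of 0.18 on the log2 scale over the 427 sites, and with every column centred on its median 20 sites were higher and 9 lower, or 69.0% higher against 82.1% before. Of these 29 sites, 27 were among the 39. The count depended on single libraries and lines. It was 20 without DGRP_774 replicate 1, the lowest among the libraries left out in turn, and 27 without DGRP_325 and 48 without DGRP_774, the lowest and the highest among the lines left out in turn.

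The 14 sites named here are called sites at which the libraries of each line differed by at most 10 points. All 6 such sites with the stock lower are included (L1 to L6). Of those with it higher, the 8 furthest from the nearest single library of the lines were taken (H1 to H8). The 14 sites are numbered in each direction by that distance. At 9 of them the call held under every alternative tried. The others were H4, L3, L4, L5 and L6.

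The site furthest above the lines was on 2R at position 20802397 (H1). The stock males had 46.8%, and the 16 libraries of the lines ran from 0.6% over a median of 5.0% to 7.5%. The line means averaged 5.14% ± 1.07 (SD, n = 8), and the stock was higher by 3.80 ± 0.29 (SE) on the log2 scale, with a limma adjusted p of 3.5e-05. Every library of the lines was thus at a fraction of the stock level, which was 9.10 times the line mean. Stock females, measured in other libraries of the same stock, had 25.25%.

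A pair of adjacent adenosines on 3R differed in the same direction, with closely spaced values among the lines. At position 123239 (H3) the stock had 23.65% and the libraries of the lines 1.9% to 2.8%, with a median of 2.4%. The difference was 3.23 ± 0.15 on the log2 scale (limma adjusted p = 1.6e-06), and the stock level was about 10 times the line mean. At the next base, 123240 (H8), the stock had 34.85% and the libraries of the lines 14.4% to 22.4%, with a median of 17.75% (difference 1.25 ± 0.17, limma adjusted p = 0.0016). The groups did not overlap at either site, and both sites were chosen by their distance from the nearest library. Another site of the cluster, 123226, had 44.05% in the stock and a line mean of 31.6% (limma adjusted p = 0.034), and 123238 had 0.80% in the stock and a line mean of 0.225%, too low to be fitted. Stock females had 19.6% at H3 and 30.2% at H8, also above every library of the male lines.

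A second pair of neighbouring bases lay on X. At position 16376716 (H2) the stock had 27.55%, and the libraries of the lines had 0.6% to 4.5% with a median of 3.25%. The difference was 3.24 ± 0.25 on the log2 scale (limma adjusted p = 3.5e-05), and the stock was at 8.94 times the line mean. At 16376715 (H6) the stock had 45.5% and the libraries of the lines 24.4% to 29.3%, with a median of 26.15% (difference 1.19 ± 0.16, limma adjusted p = 0.0016). At 16376726 the stock had 47.3% and the lines a mean of 33.1% (limma adjusted p = 0.021). All 3 sites of this cluster were therefore higher in the stock, and the fold difference was far larger at the low site than at both others. The females of the stock had no level at these 3 sites.

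On 3L the stock was higher at a run of sites within a few bases of each other. At 9826400 (H7) the stock had 61.9%, and the libraries of the lines had 33.7% to 46.5% with a median of 39.75% (difference 1.30 ± 0.28, limma adjusted p = 0.024). The adjacent site 9826401 had 73.95% in the stock and a line mean of 60.6% (limma adjusted p = 0.031), and 9826391 had 14.55% in the stock and a line mean of 3.75% (limma adjusted p = 0.0016). At 9826394 the stock had 36.1% and the lines a mean of 16.2%, with libraries from 6.5% to 22.9%, and the site was not called (limma adjusted p = 0.13). Levels in stock females at H7 were close to the males of the stock, at 58.75%.

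**Figure D3:**
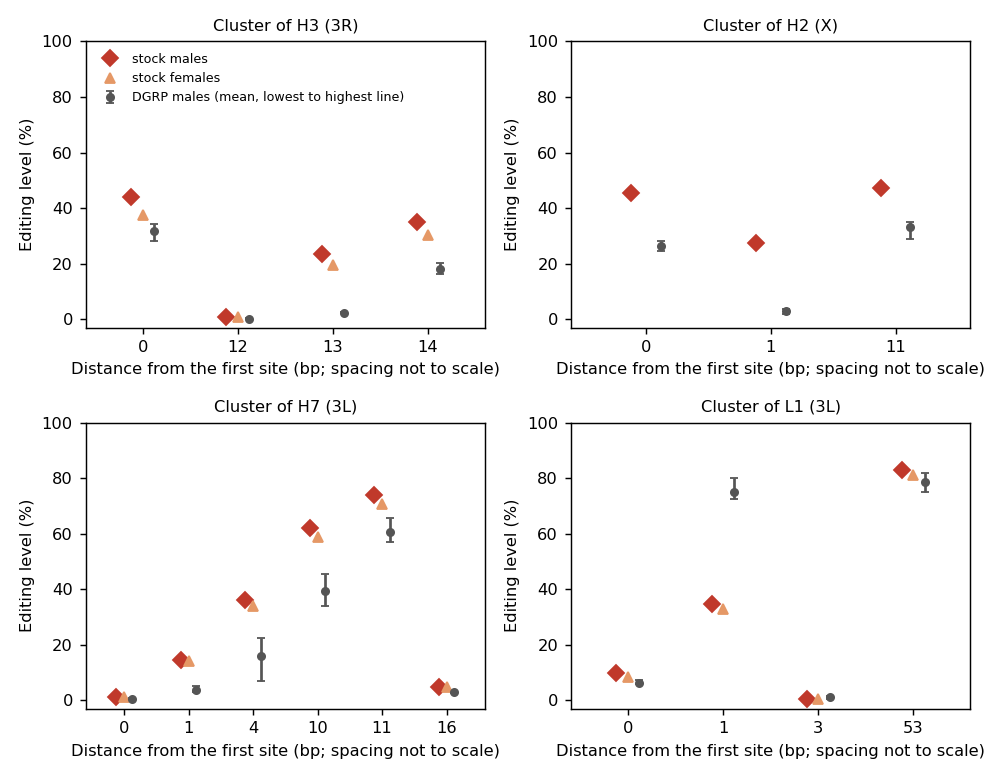
Editing level (vertical axis, %) at the sites of the clusters that hold H3, H2, H7 and L1, ordered by distance from the first site of the cluster in bp (spacing not to scale). Diamonds are stock males, triangles stock females where measured, and circles the mean of the 8 DGRP lines with bars from the lowest to the highest line mean. Stock males lay above the lines at every site of the first 3 clusters and far below them at 1 site of the last, at 34.65% against a line mean of 75.04%.

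Both other sites called higher by this rule were on X. At 1272311 (H5) the stock had 23.8% and the libraries of the lines 0.7% to 5.9%, with a median of 2.6% (difference 3.10 ± 0.47, limma adjusted p = 0.0033). The other 3 sites of its cluster were spread widely among the lines, and none was called. At 1272317 the stock had 71.4% and the libraries of the lines 12% to 65.5%, and at 1272312 the stock had 56.3% and the libraries 3.9% to 49.7%. At 1272298 the difference ran the other way, with 0.15% in the stock and a line mean of 9.19%, and the stock was inside the range of the line means, with libraries from 0% to 42.6%. At 2111839 (H4) the stock had 39.85%, and the libraries of the lines had 5.9% to 20.5% with a median of 13.35% (difference 2.09 ± 0.56, limma adjusted p = 0.049). That call is marginal, since it was lost under 22 of 34 alternatives, with adjusted p up to 0.084. At this site stock females had 6.95%, far below the males of the stock and near the low end of the lines.

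The site furthest below the lines was on 3L at position 2941312 (L1). The stock males had 34.65%, and the 16 libraries of the lines had 70% to 80% with a median of 74.75%. The line means averaged 75.04% ± 2.37 (SD, n = 8), and the difference of the stock from them was −2.45 ± 0.22 on the log2 scale (limma adjusted p = 8.2e-05). The gap was far wider than the whole range of the libraries. Stock females had 32.85%, close to the males of the stock. The adjacent base, 2941311, lay on the opposite side, at 9.80% in the stock against a line mean of 6.36% (limma adjusted p = 0.049). Another site of the cluster, 2941364, had 82.8% in the stock and a line mean of 78.7%, with the stock 0.90 points above the highest line mean and equal to the highest library.

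A high-level site on 3L, at 9148318 (L2), was also lower in the stock. The stock had 69.95%, and the libraries of the lines had 84.9% to 91.5% with a median of 88.45% (difference −1.65 ± 0.18, limma adjusted p = 0.00037). Its neighbour in the cluster, 9148285, had 32.75% in the stock and 25.7% to 33.6% in the libraries of the lines, so that the stock was 0.45 points above the highest line mean and inside the range of the libraries. L1 and L2 were the only 2 sites below the range by at least 10 points.

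The remaining decreases were smaller in points and less stable. On 2R at 20399841 (L3) the stock had 3.55%, and the libraries of the lines had 6.0% to 14.3% with a median of 8.95% (limma adjusted p = 0.031). On 2R at 20802352 (L6) the stock had 6.0%, and the libraries of the lines had 5.7% to 16% with a median of 12.95% (limma adjusted p = 0.046), so that the lowest library, of DGRP_774, was below the stock. At 20802313 on 2R (L4) the stock had 0.05% against 0.8% to 2.0% in the libraries of the lines (limma adjusted p = 0.028), and at 18748272 on 3L (L5) it had 0.35% against 0.9% to 1.7% (limma adjusted p = 0.031). Both sites are near 0, and neither call held on untransformed levels, with limma adjusted p of 0.34 at L4 and 0.43 at L5. L3 lost its call on untransformed levels (limma adjusted p = 0.11) and without DGRP_774 replicate 1 (0.095), and L6 did so without that library (0.33). With the 16 libraries fitted and the line as a block, the limma adjusted p was 0.056 at L3 and 0.19 at L6, and both calls were lost. L1 and L2 were the only named sites with the stock lower at which no alternative changed the call. Stock females had 0.9% at L4, above the stock males and inside the range of the libraries of the lines. At L3, L5 and L6 they had 1.25%, 0.5% and 6.25%, below every line mean.

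**Figure D4:**
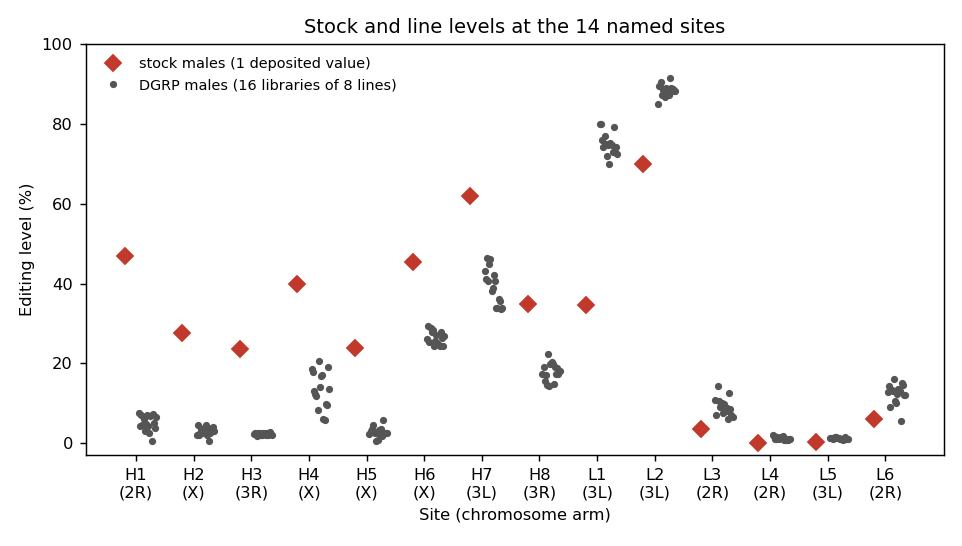
Editing level (%) at the 14 named sites, with the stock males as diamonds and each of the 16 libraries of the DGRP males as dots to their right. The stock male level lay beyond every library at all sites but L6, where 1 library at 5.7% was below the stock level of 6.0%. H1 to H8 were chosen by this distance. Over all 500 sites the stock was above every library at 86 and below every library at 38.

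H1, L4 and L6 lay in the same cluster of 7 sites on 2R, in which the stock differed in both directions. In addition to these 3 sites, the stock was higher at 20802381, with 76.1% against a line mean of 49.3% (limma adjusted p = 0.028), where libraries of the lines ran from 14% to 64.2% and those of 1 line differed by 44.2 points. At 20802382 the stock had 8.85%, above the libraries of the lines at 0.3% to 5.2%, and the site was not called. The site 20802317 had 54.8% in the stock and a line mean of 49.8%, and 20802315 had 5.6% in the stock and a line mean of 5.4%. Within this cluster the stock was thus at 9.10 times the line mean at H1, and at L6 it had 6.0% against a line mean of 12.4%.

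The share of sites with the stock above the lines was larger among sites that had compared neighbours. Sites were put in the same cluster where the next compared site lay within 50 bp, which gave 168 sites alone and 107 clusters that held the other 332. The stock was above the range at 13.1% of the sites alone, at 22.4% of 98 sites in pairs, at 37.1% of 159 sites in clusters of 3 to 5 and at 44.0% of 75 sites in clusters of 6 or more. The share below ran the other way, at 19.6%, 15.3%, 13.8% and 9.33% in the same order. The median line mean of these classes was 11.5%, 10.9%, 7.69% and 9.23%, and the part of the level in this pattern was not tested. Sites of a cluster can share an amplicon or a duplex, which was not determined. They cannot be taken as independent, so the shares are given with no test. Clusters of 6 or more sites numbered 12. In 46 clusters at least 2 sites were outside the range: in 27 of them all such sites were above, in 8 all were below, and in 11 they lay on both sides. Most of the sites fitted with limma lay in clusters: of 427, 128 were alone, 90 in pairs, 140 in clusters of 3 to 5 and 69 in clusters of 6 or more. Of the 39 called sites, 34 lay in clusters and 23 in the 9 clusters with at least 2 called sites, of which 7 had only sites called higher, 0 had only sites called lower and 2 had both.

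**Figure D5:**
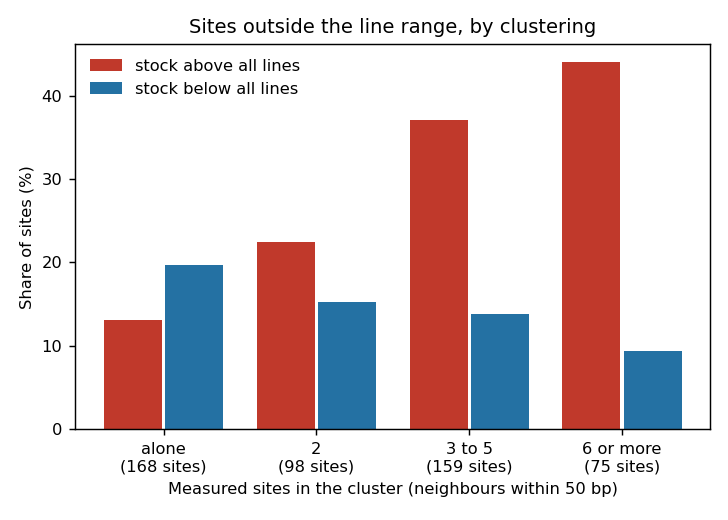
Percent of sites at which the stock males lay above (red) or below (blue) the range of the 8 DGRP line means, by the number of compared sites in the cluster. The share above was 13.1% at sites alone and 44.0% in clusters of 6 or more, and the share below was 19.6% and 9.33%.

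Some of the largest differences in points were not called. Among the 427 sites fitted, 18 called sites and 23 sites that were not called differed by at least 10 points from the line mean. At the 47 sites with line means spread over at least 20 points, the stock was inside the range at 37, above it at 7 and below it at 3. At the 453 sites with a narrower spread it was inside at 250, above at 129 and below at 74. A wider range takes in more levels, so the shares inside cannot be compared directly. The 5 sites with the widest range, chosen for that spread, show where the stock stood when the lines fell into high and low levels. On X at 19535625 the stock had 10.2%, close to DGRP_26 at 8.0% and far from the other 7 lines at 94.05% to 99.7%. On 2R at 5929235 the stock had 5.3%, close to DGRP_26, DGRP_721 and DGRP_804 at 6.65% to 7.3%, and the other 5 lines had 94.45% to 96.65%. On 2R at 19894078 the stock had 90.9%, with 7 lines at 82.4% to 93.75% and DGRP_352 at 8.9%. On X at 19107872 the stock had 90.55%, close to DGRP_26, DGRP_352, DGRP_786 and DGRP_804 at 90.7% to 93.3%, and the other lines had 9.65% to 24.15%. On 2R at 6168396 the stock was at 100% and the line means ran from 17.35% to 99.9%. The stock thus joined the high lines at 3 of these sites and the low lines at 2.

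Levels in the females of the stock and in males of a single stock of D. simulans (D. sim) are given beside these values. D. sim is the nearest species of the panel, and each level is the authors' single value. Both groups are set against the same 8 male lines as the stock males, so the 3 comparisons are not independent. At the 489 sites with a female level, stock females were above the range of the male lines at 55 (11.2%) and below it at 226 (46.2%). Female levels of the stock were a median of 2.35 points below the male levels, lower at 385 sites and higher at 95, so the shift between the sexes stands in these counts. At the 361 sites with a level in D. sim males, these were above the range of the lines at 125 (34.6%) and below it at 78 (21.6%). At H3, D. sim males had 29.75%, with 23.65% in stock males and a line mean of 2.36%, and at H2 they had 38.7%, with 27.55% in stock males and a line mean of 3.08%. At L1, D. sim males had 74.05%, with 34.65% in stock males and a line mean of 75.04%, and at L2 they had 87.5%, with 69.95% in stock males and a line mean of 88.5%. At H7 they had 25.9%, below the lines, with 61.9% in stock males and a line mean of 39.3%.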

How the data were processed

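The authors amplified edited regions of whole-body cDNA by multiplex PCR, split the reads by sample (FASTX Toolkit), mapped them (TopHat) and kept sites with at least 50 reads; positions are in dm3. Each deposited value is the edited fraction of reads, multiplied by 100 here. The stock column holds 1 value for 2 libraries, and the DGRP table holds 1 per library. How the 2 were combined, or whether RNA-seq was added, is not stated for this column. All 752 stock values are whole multiples of 0.05% within 1e-06 of a step, as means of 2 values in steps of 0.1% would be. For its divergence analysis the paper added RNA-seq levels where targeted ones were missing. It also dropped targeted sites whose biological replicates differed by over 10%. Whether the stock column passed this filter is not stated. The DGRP table did not, since the libraries of DGRP_774 differed by over 10 points at 48 of the 500 sites. Both columns of DGRP_721 carry the same library name, so they may not be separate flies. Per the study's methods, whole bodies were collected for each sample, and replicates of the species panel were biological apart from some marked as technical. For the DGRP libraries this is not stated. The p-values measure only the spread between line means. All value columns could be assigned (0 left out). In the table, 16 positions had digits replaced by NA, which were read as 200; none was among the 500 sites. Genes were not assigned, because the annotation used here is of another build.

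Line means were the mean of 2 libraries. limma 3.58.1 (R 4.3.3) was fitted on log2((level + 0.01)/(1 − level + 0.01)), with levels as fractions, at sites with a mean of at least 1% over the 9 genotypes, with Benjamini-Hochberg adjustment over 427 sites, and was tested on simulated data. Named sites were the called sites furthest from the nearest single library of the lines, up to 8 per direction, with libraries of each line within 10 points. The sites, clusters and rules were chosen with earlier results of these data known. Alternatives were the offset, the minimum level, the scale, the centring, the range used and leaving out lines or libraries.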

Additional observations from a re-analysis of the deposited data

Results flagged for a closer look

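Of the 18 groups of values examined for a value far from its neighbours, 2 had such a value, and chance gives such a value in about 5% of groups. The count of sites above the range of the other genotypes was 136 for the stock, with the next highest genotype at 72. This gap was 0.547 of the whole range of the 9 counts, past the critical value of 0.493. That value holds for independent values, and these counts are not, since at most 1 genotype can be highest at a site. The count is also what the comparison set out to describe, so the flag adds no separate evidence. At the 3L site 2941312, DGRP_26 had a line mean of 80%, above the other 7 lines, with a gap of 0.534 of the range of the 8 line means, past the critical value of 0.526; both of its libraries had 80%, and the stock at 34.65% was lower than every line with or without it.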

How the results depend on the processing

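Against the range of the 16 libraries the stock was above at 86 sites and below at 38, 124 in all, and at a distance of at least 5 points at 27 and 6, 33 in all. With the stock shifted by the median difference, 141 sites were below. Leaving out a line gave 137 to 146 above, 78 to 87 below and 220 to 231 outside, and leaving out a library 125 to 137, 64 to 81 and 193 to 217. The number of sites called by limma was 19 at a minimum level of 5% (16 higher and 3 lower), with 20 higher after centring. The number called lower was 3 with an offset of 0.05, 3 on untransformed levels and 4 with the 16 libraries and the line as a block. Leaving out a line gave 27 to 48 calls (23 to 37 higher, 4 to 11 lower), and leaving out a library 20 to 44 (17 to 33 higher, 3 to 11 lower). The lowest and the highest of these came without DGRP_774 replicate 1 and without DGRP_774, and the cause was not tested. The median difference was 0.303 to 0.472 points without single libraries, 0.8875 at a minimum level of 1% and 1.491 at 10%. The highest count among the lines was 112 without DGRP_774 and 18 at a distance of at least 5 points.

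No paired analysis was possible because the stock column carries no replicate number. No named site changed direction, and calls were kept in 422 combinations of site and alternative and lost in 51. H4 lost its call without any line but DGRP_774 (limma adjusted p 0.051 to 0.082) and without 11 single libraries (0.0501 to 0.074): both of DGRP_325, DGRP_352 and DGRP_721, replicate 2 of DGRP_26, DGRP_441, DGRP_786 and DGRP_804, and replicate 1 of DGRP_774. L6 lost it without any line but DGRP_441 and DGRP_774 (0.056 to 0.074) and without 6 single libraries (0.051 to 0.33): replicate 1 of DGRP_26, DGRP_352 and DGRP_774, replicate 2 of DGRP_325 and DGRP_786, and 1 of DGRP_721. L3 lost it without DGRP_26 or DGRP_352 (0.053 and 0.054) and DGRP_325 replicate 2 (0.056), and L5 without DGRP_26 or DGRP_325 (0.054 and 0.053) and DGRP_774 replicate 1 (0.062). The depth of each site is unknown, so the counting error of levels near 0 cannot be given, and the single value of the stock has no measured spread.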
